A study of Mus musculus with 6 samples.

Results

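Of the 39768 accessible intervals in the deposited table, 8252 (20.8%) lie in introns away from any start of transcription, and these intronic intervals are described here. An interval was taken as intronic when its nearest edge lay more than 1 kb from every annotated transcription start site (TSS) of GENCODE vM1, when it lay inside the body of a protein-coding gene and touched no exon of any gene, and when it was on one of the 19 autosomes. The counts come from ATAC-seq, in which the Tn5 transposase inserts adapters into DNA that nucleosomes leave bare, so that more fragment ends in an interval mean more accessible chromatin. There were 6 libraries of 50000 nuclei each, from muscle of mice aged 7 weeks, of strain C57BL/6 in the labels and backcrossed to C57BL/6N in the methods. The 3 CTL libraries are from mice with loxP sites in both genes of the histone variant H2A.Z (flox/flox for H2A.Z-1 and likewise for H2A.Z-2) and no Cre, a group the labels also call WT. The 3 H2A.Z dKO-labelled libraries are from mice with the same floxed alleles plus the HSA-Cre transgene. The HSA promoter is active in post-mitotic muscle fibres, so the H2A.Z genes of the other cells of the muscle are not targeted. In satellite cells of CTL mice, the paper found H2A.Z below detection by immunofluorescence. The labels name the tibialis anterior and ultracentrifugation through sucrose, and the methods hind limb muscles and a Dounce homogenizer.

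An intron can hold elements that act on a promoter from a distance. Enhancers are opened by transcription factors that bind short motifs: in muscle these include the myogenic bHLH factors, which bind E-boxes, and the MEF2 factors, and, in many cell types, AP-1, which binds after stress and growth signals. CTCF binds a longer motif and, with cohesin, holds the bases of chromatin loops. H2A.Z is found at active promoters and also at enhancers and CTCF sites.

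Sequences of 7 intronic intervals are shown here, because they carry the motifs to which the counts below are tied or have the highest level or the smallest p. Each is 200 bases around the centre of the interval, from the plus strand of mm9 (NCBIM37), written 5′ to 3′. The Phyhd1 window (chr2:30125817-30126016) and the Mylk2 window (chr2:152740345-152740544) have a CTCF match in capitals, on the minus and on the plus strand. Phyhd1 holds the interval of highest level with such a match, and Mylk2 the sarcomere-gene interval of highest level.
Phyhd1: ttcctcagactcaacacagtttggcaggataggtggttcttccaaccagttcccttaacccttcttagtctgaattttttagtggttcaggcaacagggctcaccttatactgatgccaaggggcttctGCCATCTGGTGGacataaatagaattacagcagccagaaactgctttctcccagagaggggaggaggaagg
Mylk2: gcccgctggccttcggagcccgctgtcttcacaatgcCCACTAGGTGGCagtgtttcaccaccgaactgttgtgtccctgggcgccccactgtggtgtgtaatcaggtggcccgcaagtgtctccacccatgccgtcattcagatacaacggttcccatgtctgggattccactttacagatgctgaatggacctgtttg
The Cuedc1 window (chr11:87931278-87931477) has a MEF2 and an AP-1 match in capitals.
Cuedc1: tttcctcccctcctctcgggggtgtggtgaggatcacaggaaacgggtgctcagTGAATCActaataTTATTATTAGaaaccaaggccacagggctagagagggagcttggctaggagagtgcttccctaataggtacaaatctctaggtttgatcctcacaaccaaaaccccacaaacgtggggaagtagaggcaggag
The Per1 window (chr11:68910556-68910755) has an E-box and a CRE in capitals, and the Nr1d1 window (chr11:98635228-98635427) 3 SP/KLF matches. These intervals have the highest levels among those without the telomeric repeat.
Per1: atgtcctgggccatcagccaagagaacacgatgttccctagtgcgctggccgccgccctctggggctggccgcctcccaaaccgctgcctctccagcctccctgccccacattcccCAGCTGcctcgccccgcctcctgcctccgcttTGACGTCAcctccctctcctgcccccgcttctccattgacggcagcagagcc
Nr1d1: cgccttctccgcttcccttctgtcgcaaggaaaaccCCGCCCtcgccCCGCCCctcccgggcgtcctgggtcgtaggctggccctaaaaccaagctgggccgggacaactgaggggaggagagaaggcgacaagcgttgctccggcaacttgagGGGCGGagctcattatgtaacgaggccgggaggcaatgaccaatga
The Oit1 window (chr14:9201991-9202190), with an E-box in capitals, and the Snx20 window (chr8:91157493-91157692), with no match to any motif searched, rank first by p among higher and among lower intervals.
Oit1: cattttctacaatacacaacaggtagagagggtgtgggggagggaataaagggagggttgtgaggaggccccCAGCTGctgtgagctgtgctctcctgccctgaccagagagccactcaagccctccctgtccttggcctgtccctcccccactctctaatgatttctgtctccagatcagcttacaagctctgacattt
Snx20: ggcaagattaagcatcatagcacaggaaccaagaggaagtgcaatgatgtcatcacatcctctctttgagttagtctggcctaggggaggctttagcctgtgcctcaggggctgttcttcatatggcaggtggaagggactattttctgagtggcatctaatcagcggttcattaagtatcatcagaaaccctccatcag

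The libraries held 3520008 to 6117245 counts in all intervals. Replicate 1 of the H2A.Z dKO-labelled libraries stood apart from the other 5: 8.85% of its counts were in intronic intervals, against 9.72% to 10.7% in the others, and 76.3% in promoter intervals (within 1 kb of a TSS), against 72.6% to 74.2%. Medians of fold changes without it are given below. The labels could not be checked at the inactivated genes with intronic intervals, since H2afz and H2afv hold none by the rule. A pair of intervals in H2afz introns lay 597 and 665 bp from a TSS. Together they held 79, 69 and 33 counts in the CTL libraries (replicates 1, 2 and 3) and 57, 52 and 64 in the H2A.Z dKO-labelled libraries. Whether they lie between the loxP sites was not checked, so they do not show if the floxed segment was lost. By RT-qPCR, western blotting and immunofluorescence, the paper reports loss of H2A.Z in dKO muscle. No label ties a library to a separate mouse, so p-values measure the spread between libraries.

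The intronic intervals were narrow and of moderate level. Their median width was 85 bp (quartiles 42 and 166, range 9 to 985), against 193 bp for promoter intervals and 92 bp for intergenic ones, and 3651 of them (44.2%) were narrower than the 73 bp over which the authors spread each fragment end when they called peaks. The median interval had 38.7 counts per library, and 5013 (60.7%) had at least 20 counts in every library. Level was expressed as RPKM, counts per kb of interval scaled to the library's total over all intervals. The narrowest intervals can thus reach a high RPKM with few counts. Mean RPKM had a median of 99.5 among intronic intervals, with quartiles of 79.7 and 128 and a range of 38.2 to 827. A total of 1375 intronic intervals (16.7%) overlapped another interval of the table, so that some fragment ends count in both.

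Intronic intervals were less accessible than promoter intervals in every library. Their median RPKM was 99.4, 97.1 and 98.5 in CTL replicates 1, 2 and 3 and 84.3, 108 and 105 in the H2A.Z dKO-labelled libraries, against 132 to 138 for promoter intervals in the 6 libraries. The difference of the medians on the log2(RPKM + 0.5) scale averaged -0.44 (SD 0.15, n = 6 libraries; exact sign-flip permutation test, two-sided p = 0.031, the smallest that 6 libraries allow). Adding 36 bp to each width, for the reach of the extended ends, widened it to -0.69. Against the 924 exonic intervals away from TSSs the difference was -0.09 (SD 0.03, n = 6, p = 0.031 by the exact permutation test), in the same direction in all 6 libraries. Against intergenic intervals it was -0.01 (SD 0.03, n = 6; exact permutation test, p = 0.375), with 3 libraries on either side of 0. With both classes limited to intervals more than 5 kb from a TSS, the difference from intergenic intervals was -0.03 (n = 6, exact permutation p = 0.0625). The difference from exonic intervals, limited in the same way, was -0.02 (n = 6, exact permutation p = 0.469) and so did not hold at that distance, while at 2 kb it was -0.05 (p = 0.031 by the same exact test).

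**Figure D1:**
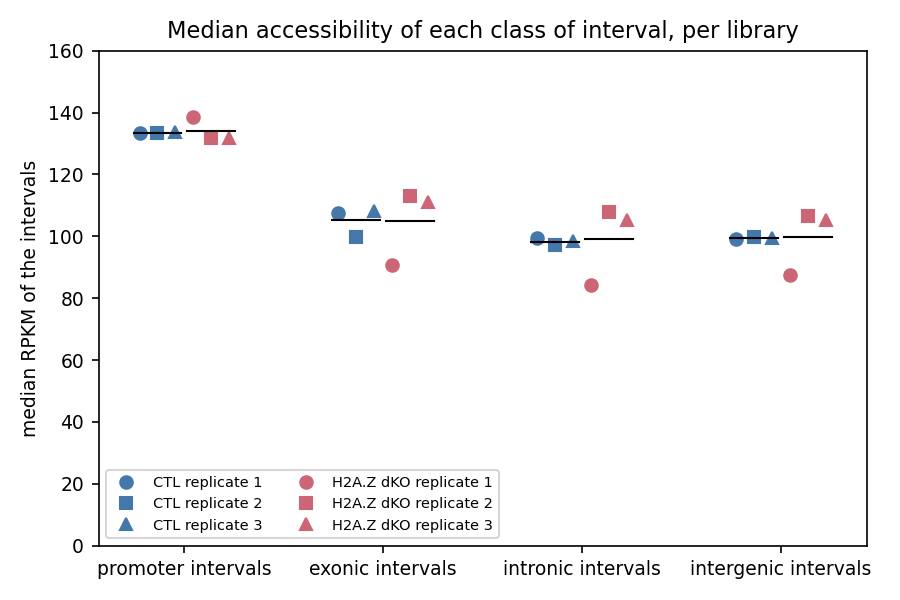
Median RPKM (y axis) of the promoter, exonic, intronic and intergenic intervals in each library; points are libraries and black lines the mean of each group of 3. Intronic and intergenic intervals lie close together below the promoter intervals, and H2A.Z dKO replicate 1 is lowest among the intronic intervals at 84.3 and highest among promoter intervals at 138.

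The median intronic interval lay 13.1 kb from the nearest TSS (quartiles 5.31 and 29.5 kb, farthest 382 kb). The introns open to the rule spanned 823 Mb, which gives 10.0 intervals per Mb. Between 1 and 2 kb from a TSS there were 15.7 intervals per Mb, and between 2 and 20 kb 11.8 to 12.4. The density then fell to 9.71 per Mb at 20 to 50 kb, 6.45 at 50 to 100 kb and 3.55 beyond. Level fell with distance too, from a median RPKM of 120 at 1 to 2 kb to 94.4 at 20 to 50 kb and 90.9 beyond 100 kb. GC content went along with it, from a median of 57.1% to 52.9%. At the threshold of the rule, the 106 intervals in introns beyond 900 and up to 1000 bp had a median RPKM of 128, and the 95 intronic intervals beyond 1000 and up to 1100 bp had 112.

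Density also fell with the number of the intron in the gene. First introns held 2816 intronic intervals (34.1%). In the widest transcript of each gene, the density was 13.3 per Mb in first introns, 10.9 in second and 8.03 in sixth or later introns. First introns also begin at a TSS, so rank and distance were not separated. Median RPKM was 103 in first introns and 97.0 in sixth or later ones.

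**Figure D2:**
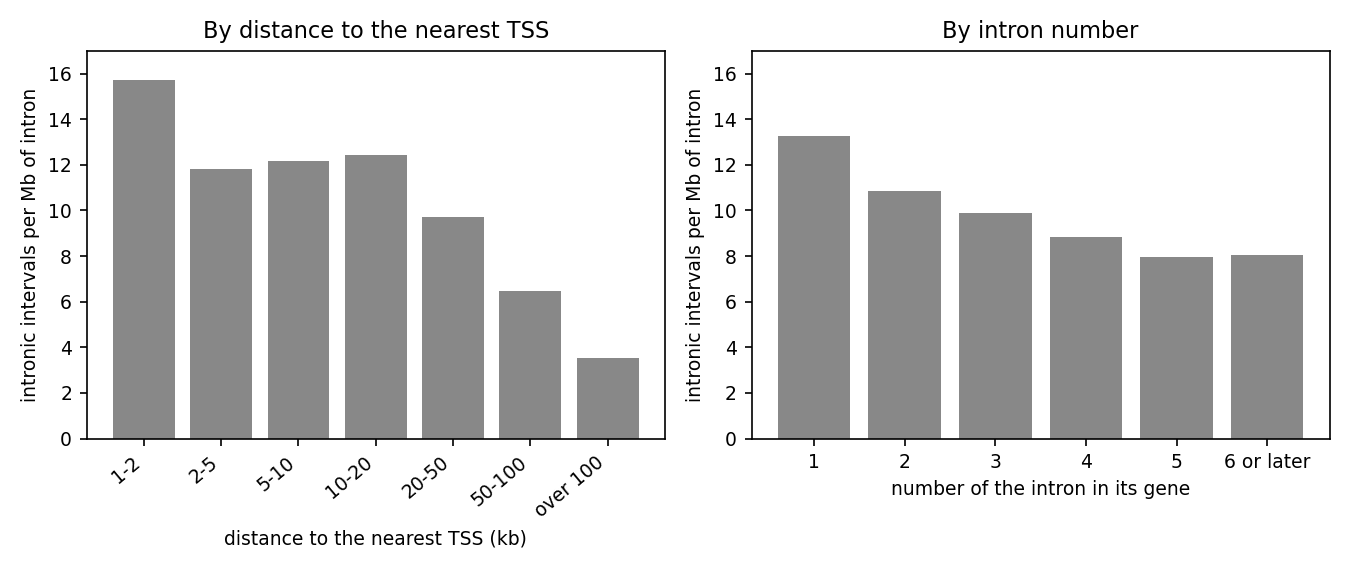
Intronic intervals per Mb of intron open to the rule (y axes), by distance to the nearest TSS in kb (left) and by number of the intron in the widest transcript of the gene (right). Density falls from 15.7 per Mb at 1 to 2 kb to 3.55 beyond 100 kb, and from 13.3 in first introns to 8.03 in sixth or later introns.

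Of 17711 autosomal protein-coding genes with intron sequence open to the rule, 3150 (17.8%) held an intronic interval when each was given to the shortest gene around it. Of these genes, 1376 held 1 interval and 79 held 10 or more. A promoter interval was present at 2357 of the 3150 host genes (74.8%) and at 7699 of the other 14561 genes (52.9%). The gene model with the most intervals was Gm20388, with 81, but this model is 4.43 Mb long and runs across many other genes, and 87 intervals have only it or the model of Fgfr2, 3.01 Mb long, as host. Next came Tns1, a tensin that links integrins to actin, with 30 intervals and 151 per Mb of intron. Zbtb16, a zinc finger repressor, held 26 (148 per Mb), and Sh3pxd2a, a podosome scaffold, 25 (129 per Mb).

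Of these 3 genes, the summed level overlapped between the groups for all but Tns1. For Tns1 it was 547, 520 and 539 CPM (counts scaled to the library's total over all intervals) in the CTL libraries and 575, 562 and 578 in the H2A.Z dKO-labelled libraries. The Tns1 groups did not overlap, but the smallest unadjusted p of a single Tns1 interval was 0.067 in edgeR's quasi-likelihood test (adjusted p = 0.972). Zbtb16 ran from 458 to 586 CPM in CTL and from 380 to 600 in the H2A.Z dKO-labelled libraries, its lowest value being in replicate 1. Sh3pxd2a ran from 321 to 370 and from 298 to 380 CPM.

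Of the 5 intervals of highest level, 3 hold telomere-like repeats. The interval of highest mean RPKM was in the third intron of Pde1c, a calmodulin-dependent phosphodiesterase gene, with 854 ± 212 RPKM in CTL and 800 ± 39.0 in the H2A.Z dKO-labelled libraries (SD, n = 3 each). The second, in Kcnh1, a voltage-gated potassium channel gene (chr1:194277917-194278013), had 822 ± 204 and 774 ± 35.1 RPKM. The fourth, in Ppp2r2b, which encodes a regulatory subunit of protein phosphatase 2A (chr18:43073584-43073669), had 474 ± 124 and 447 ± 22.9 RPKM. All of these hold at least 4 tandem TTAGGG units within 36 bp. Such a run was found in 49 intronic intervals, 6 of the 10 with the highest mean RPKM, and in 132 intervals of the table, of which 76 were intergenic and 1 was at a promoter.

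Counts in these 49 intervals did not follow the depth of the libraries. They summed to 5017, 4611 and 4744 in CTL replicates 1, 2 and 3 and to 6424, 4891 and 4881 in the H2A.Z dKO-labelled libraries, although CTL replicate 3 had the fewest counts in all. Scaled to depth this was 820, 996 and 1348 CPM, and 1094, 1075 and 972 CPM, so the groups overlapped. Reads from such repeats can align at many places, and how the authors treated those is not given in the sources used here. Median RPKM was 170 for the 49 and 99.4 for the other intronic intervals.

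The third and the fifth of the highest levels were in Nr1d1 and Per1. The first intron of Nr1d1, which encodes the repressor REV-ERBα (chr11:98635291-98635365), held 194, 173 and 148 counts in the CTL libraries against 236, 156 and 173 in the H2A.Z dKO-labelled ones. That is 494 ± 69.0 and 484 ± 44.8 RPKM (SD, n = 3). The first intron of Per1, a repressor of the clock (chr11:68910641-68910671), held 71, 64 and 49 against 87, 72 and 73 counts, or 423 ± 42.2 and 486 ± 21.9 RPKM. Its counts did not overlap between the groups, and edgeR gave a log2 fold change of 0.21 with a standard error of 0.20 (adjusted p = 0.981). These intervals lie 1188 and 1779 bp from the nearest TSS.

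Among the widest intervals were those in Mpp7 (894 bp), in the cytoskeletal crosslinker Macf1 (787 bp), in Klf13 (744 bp), which encodes a Krüppel-like factor, and in the cAMP phosphodiesterase gene Pde4d (733 bp). The Mpp7 interval (chr18:7608880-7609773) held 992, 1263 and 747 counts in the CTL libraries against 1789, 1261 and 1193 in the H2A.Z dKO-labelled ones, the most of any intronic interval. Its log2 fold change was 0.34, with a standard error of 0.16 (edgeR adjusted p = 0.972). Its counts were highest in H2A.Z dKO replicate 1, and its RPKM overlapped between the groups.

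Motifs were searched on both strands of the 200-bp window at the centre of each interval, and in windows 1 kb to either side. CTCF showed the largest ratio to the flanks, 29.8: 566 intronic intervals (6.86%) had a match, against 0.230% of flanks, 1.60% of promoter intervals, 8.34% of intergenic intervals and 4.51% of all intervals. The E-box CAGCTG was in 24.98% of intronic intervals, 10.6% of flanks, 22.4% of intergenic intervals and 17.5% of all intervals. MEF2 matches were in 428 intronic intervals (5.19%), 1.96% of flanks, 3.78% of intergenic intervals and 2.64% of all. The AP-1 motif TGANTCA was in 1026 (12.4%), in 5.61% of flanks, in 12.0% of intergenic intervals and in 7.49% of all.

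SP/KLF, ETS and CRE motifs were more frequent in promoter intervals than in intronic ones. The SP/KLF motif GGGCGG was in 9.77% of intronic intervals and in 56.7% of promoter intervals, and in 35.8% of all. The ETS motif CGGAAG was in 4.57% and 22.0% (14.3% of all), and the cAMP response element (CRE) TGACGTCA in 0.412% and 2.24% (1.42% of all). The NFI half-site TTGGCA was in 17.7% of intronic intervals, 9.77% of flanks and 11.3% of all, and the TEAD motif GGAATG in 13.7%, 10.5% and 9.78%. The nuclear receptor half-site AGGTCA was in 17.4%, 13.7% and 11.7%, and the RUNX motif ACCACA, in 14.2%, was no more frequent than in the flanks, at 15.9% (10.1% of all). Windows of intronic intervals had a mean GC content of 52.6%, their flanks 46.8% and promoter windows 64.7%, and the part of base composition in these shares was not tested. Some of these motifs share letters, and a match is a run of letters, not a bound site.

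**Figure D3:**
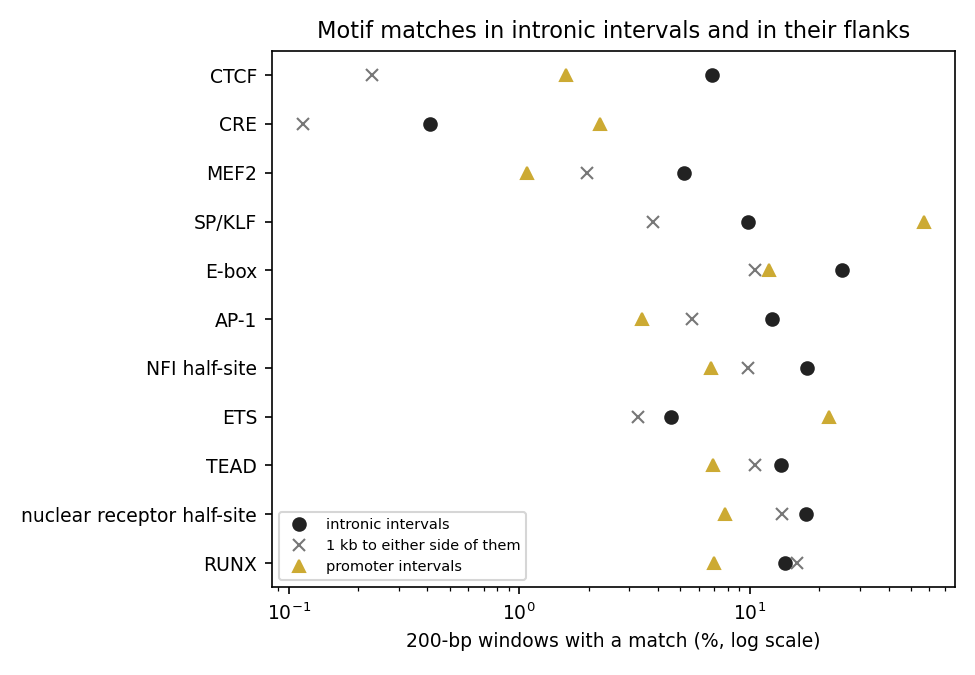
Share of 200-bp windows with a match (x axis, percent, log scale) for each motif reported: intronic intervals (circles), windows 1 kb to either side of them (crosses) and promoter intervals (triangles). CTCF has the largest ratio, with 6.86% of intronic intervals against 0.230% of flanks, and SP/KLF is the most frequent in promoter intervals at 56.7%.

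Intervals with a CTCF match were narrower than the rest, with a median width of 42 bp, and had a median RPKM of 113, against 98.6 for intronic intervals without one. RPKM divides by width, and the 36 bp were not added here, so this difference was not separated from width. The Phyhd1 interval shown above (chr2:30125904-30125931), also inside a second gene, held 89, 62 and 39 counts in the CTL libraries against 48, 62 and 66 in the H2A.Z dKO-labelled ones, or 465 ± 63.1 and 416 ± 108 RPKM. The Cuedc1 interval (chr11:87931366-87931391), highest with a MEF2 match, had 210 ± 33.2 and 214 ± 33.1 RPKM, and the Hsd11b1 interval, in the gene of an enzyme that regenerates glucocorticoids and highest with an AP-1 match, 423 ± 112 and 427 ± 76.0. The latter holds the telomeric repeat. The Per1 interval was the highest with an E-box.

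No intronic interval passed the test between the groups. edgeR called 0 of 8252 at an adjusted p under 0.05 (0.0% of all 39768 intervals), as did DESeq2 and limma voom, and the smallest adjusted p of an intronic interval was 0.855 in edgeR. At an unadjusted p under 0.05, 256 were higher in the H2A.Z dKO-labelled libraries (3.1%, against 2.64% of all intervals) and 248 were lower (3.01%, against 2.31%). DESeq2 gave 97 and 94, and limma voom 513 in either direction, out of 756 and 1996 over all intervals. Without H2A.Z dKO replicate 1, 592 were higher and 199 lower, still with 0 adjusted calls. In that setting 3163 of all 39768 intervals were at p under 0.05 in either direction, against 1970 with it. The groups did not overlap in CPM at 436 intronic intervals with higher values in the H2A.Z dKO-labelled libraries (5.28%, against 5.26% of all) and at 409 with lower values (4.96%, against 5.3%).

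The size of change that the data allow was small for most intronic intervals. The 95% confidence interval of the fold change lay within 2-fold in either direction for 7095 of them (86.0%, against 91.4% of all intervals), with a median half-width of 0.51 on the log2 scale. The median log2 fold change was 0.02, and 0.10 without H2A.Z dKO replicate 1. From the 5th to the 95th percentile it ran from -0.47 to 0.49. The mean RPKM differed at least 2-fold at 59 intronic intervals, 24 of them higher and 35 lower in the H2A.Z dKO-labelled libraries. Their median count per library was 11.3, and 0 of the 59 had 20 counts in every library. The share of all intervals past this cut was not computed, so nothing is read from the number or its split.

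The share of counts that fell in introns differed by less than its spread. The share of counts in intronic intervals was 10.0%, 9.72% and 9.91% in CTL (9.89% ± 0.159, SD, n = 3) and 8.85%, 10.7% and 10.5% in the H2A.Z dKO-labelled libraries (10.0% ± 1.02). Replicate 1 was below every CTL library and the other two were above, and without replicate 1 the mean of the latter was 10.6%. The difference, H2A.Z dKO minus CTL, was 0.144 percentage points, and came to 0.735 without H2A.Z dKO replicate 1, -0.188 without H2A.Z dKO replicate 2 and -0.114 without H2A.Z dKO replicate 3.

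**Figure D4:**
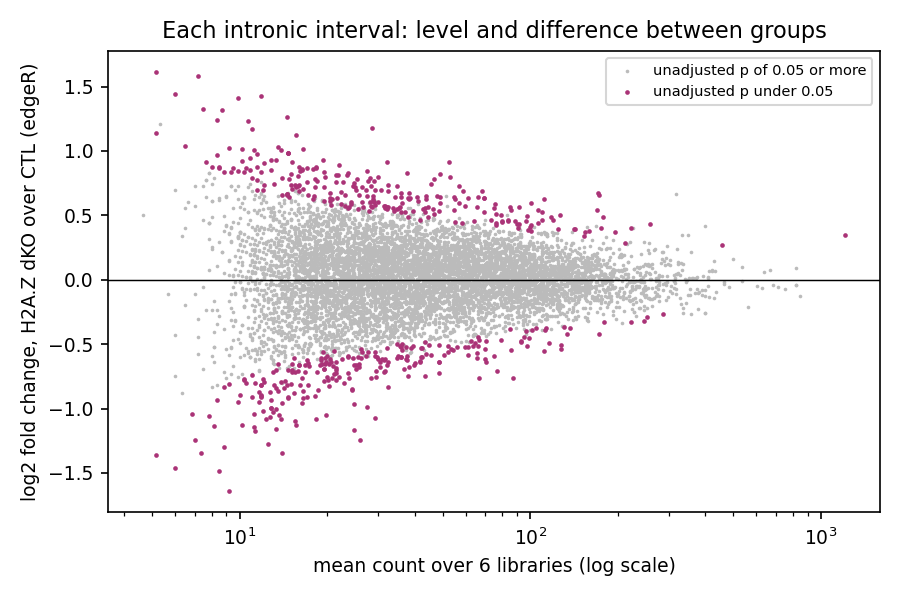
Log2 fold change of each intronic interval, H2A.Z dKO over CTL from edgeR (y axis), against its mean count over 6 libraries (x axis, log scale); colour marks an unadjusted p under 0.05. The 256 intervals on the higher side and 248 on the lower side that pass it sit at the edge of a cloud that narrows as counts grow.

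Among intervals with higher values in the H2A.Z dKO-labelled libraries, the smallest p was at a first intron of Oit1 (chr14:9202043-9202139), with 18, 16 and 15 counts in the CTL libraries against 53, 29 and 40 in the H2A.Z dKO-labelled ones. This is 36.6 ± 6.85 and 80.3 ± 13.8 RPKM (SD, n = 3), and a log2 fold change of 1.18 with a standard error of 0.26 (edgeR adjusted p = 0.855). It was followed by an intron of Ruvbl2, an ATPase of complexes that exchange H2A.Z (chr7:52682191-52682211), with 7, 8 and 3 counts against 19, 16 and 18. Next were Lclat1, a cardiolipin acyltransferase gene (chr17:73549941-73549973; 5, 4 and 6 against 17, 15 and 12 counts), and Plat, which encodes tissue plasminogen activator (chr8:23876373-23876406; 8, 11 and 5 against 29, 19 and 15). Last came Golga4, a golgin gene (chr9:118429334-118429426; 23, 19 and 21 against 46, 38 and 46). The Ruvbl2 interval had an adjusted p of 0.943 in edgeR, and the last 3 had 0.972. In these 5 the counts of the groups did not overlap, log2 fold changes were 0.91 to 1.43, and all were listed by the authors for H2A.Z dKO only. The choice by smallest p favours such intervals, and the authors' lists were made from these same libraries.

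On the lower side, the smallest p was at the first intron of Snx20, a sorting nexin gene (chr8:91157569-91157618), with 38, 43 and 26 counts in the CTL libraries against 17, 15 and 17 in the H2A.Z dKO-labelled ones. This is 153 ± 31.1 and 63.8 ± 5.23 RPKM (SD, n = 3), and a log2 fold change of -1.24 with a standard error of 0.26 (edgeR adjusted p = 0.855). Ifih1, which encodes the RNA sensor MDA5 (chr2:62440917-62440953), followed with 22, 22 and 15 against 7, 9 and 9 counts. Irak2, a kinase of Toll-like receptor signalling (chr6:113594770-113594841), had 45, 25 and 30 against 13, 13 and 22. Snx24, another sorting nexin gene (chr18:53533269-53533404), had 48, 46 and 22 against 18, 23 and 18. Msi2, an RNA-binding Musashi gene (chr11:88460678-88460763), had 38, 42 and 26 against 21, 20 and 17. The edgeR adjusted p was 0.910 for Ifih1 and 0.972 for the last 3. These 5 had log2 fold changes of -1.34 to -0.99 and were all listed for CTL only, which the choice by smallest p favours here too.

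The authors' own column lists 4903 intronic intervals (59.4%, against 43.4% of all intervals) for H2A.Z dKO only, 1693 (20.5%, against 38.7%) for both groups and 1656 (20.1%, against 17.9%) for CTL only. The share listed for H2A.Z dKO only was 56.8% of exonic, 53.8% of intergenic and 31.6% of promoter intervals. Intronic intervals listed for both groups were the widest, with a median of 151 bp, against 82 and 55 bp. Median log2 fold changes were 0.12 for the H2A.Z dKO list, -0.05 for both and -0.21 for the CTL list. The lists were made from these libraries, so the fold changes follow from them and are given as a description.

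By motif, the median log2 fold change of intronic intervals with a CTCF match was -0.07, against 0.03 for those without. Of the 566, 8 were higher and 28 lower at p under 0.05 before adjustment (1.41% and 4.95%, against 2.64% and 2.31% of all intervals). The sum over the 566 was 3676, 3680 and 3873 CPM in CTL and 3015, 3926 and 3838 in the H2A.Z dKO-labelled libraries, so the groups overlapped. The level of intervals with a match relative to those without, as log2 deviation from the mean of the 6 libraries, was -0.02, 0.04 and 0.10 in CTL and -0.09, -0.01 and -0.03 in the H2A.Z dKO-labelled libraries, which overlap as well. Without H2A.Z dKO replicate 1 the median with a match became 0.03, and the difference from intervals without one was -0.07 in place of -0.10. Without CTL replicate 3 they were -0.03 and -0.06, and without H2A.Z dKO replicate 2 or 3 the median with a match was -0.12 or -0.13. Intergenic intervals with a CTCF match had a median of -0.05, against 0.02 without.

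AP-1 and MEF2 lay on the other side. Intronic intervals with an AP-1 match had a median log2 fold change of 0.07, against 0.01 without, and 46 were higher and 12 lower at p under 0.05 before adjustment (4.48% and 1.17%, against 2.64% and 2.31% of all intervals). Intergenic intervals with an AP-1 match had a median of 0.07, with 56 higher and 23 lower (5.11% and 2.10%). Intronic intervals with a MEF2 match had 0.07 against 0.02, with 22 higher and 6 lower (5.14% and 1.40%), and intergenic ones 0.04, with 16 higher and 9 lower (4.65% and 2.62%). Library deviations overlapped for AP-1, at -0.05, 0.05 and -0.08 in CTL and -0.03, 0.01 and 0.10 in the H2A.Z dKO-labelled libraries, and for MEF2, at 0.09, -0.16 and -0.02 against 0.02, 0.05 and 0.03. The MEF2 difference came to -0.01 without CTL replicate 2, and the AP-1 difference to 0.01 without H2A.Z dKO replicate 3. Intronic E-box intervals had 0.03 against 0.02, with 59 higher and 45 lower (2.86% and 2.18%). Without H2A.Z dKO replicate 1 the medians with a match were 0.17 for AP-1, 0.16 for MEF2 and 0.11 for the E-box, against 0.10 over all intronic intervals. The AP-1 median was -0.01 without H2A.Z dKO replicate 3, and that of the E-box -0.02 without H2A.Z dKO replicate 2.

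All muscle gene lists but that of sarcolemma and synapse were denser in intronic intervals than genes at large. The 49 sarcomere genes held 69 in 23 genes, or 35.3 per Mb of intron against 10.0 over all genes. The 35 genes of fibre metabolism held 51 (36.3 per Mb), the 29 genes of excitation-contraction coupling 86 (27.5 per Mb), the 42 muscle regulators 106 (21.8 per Mb), and the 34 genes of sarcolemma and synapse 55 (9.57 per Mb). Gene lists of other cell types held intronic intervals too: fibroblast genes 37 (26.7 per Mb), Schwann cell genes 5 (24.4), smooth muscle genes 10 (16.6), endothelial genes 24 (11.5), leukocyte genes 11 (8.53) and satellite cell genes 4 (7.75). The leukocyte and satellite lists lay below the 10.0 per Mb of all genes. The counts come from the nuclei of whole muscle, so the cell type in which an interval is open was not determined. Fewer nuclei of a cell type cannot be told apart from less open chromatin per nucleus.

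Sarcomere genes were led by Synpo2, which encodes a Z-disc protein, with 16 intronic intervals and 148 ± 9.39 CPM in CTL against 158 ± 23.2 in the H2A.Z dKO-labelled libraries (SD, n = 3). Ldb3, the gene of the Z-disc protein ZASP, had 6 intervals with 92.6 ± 5.21 and 105 ± 7.60 CPM, and Xirp2, which encodes an actin-binding Xin repeat protein, 3 with 83.8 ± 12.4 and 83.7 ± 13.8. The highest level was at the Mylk2 interval (chr2:152740414-152740477), in the gene of skeletal myosin light chain kinase, at 273 ± 19.9 and 248 ± 48.7 RPKM. Of the 69 intervals, 7 were higher and 0 lower at p under 0.05 before adjustment, against 2.64% and 2.31% of all intervals. They are in Mybpc1, Ldb3, Ttn, Tmod1 and Synpo2, with edgeR adjusted p of 0.972 each, and 1 of them, in the titin gene Ttn, held 16, 15 and 14 counts in the CTL libraries against 22, 33 and 23 in the H2A.Z dKO-labelled ones. The summed level of the list was 903, 752 and 829 CPM in CTL and 738, 987 and 927 in the H2A.Z dKO-labelled libraries, and the median log2 fold change 0.04, which became 0.15 without H2A.Z dKO replicate 1 and -0.02 without H2A.Z dKO replicate 3.

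In the excitation-contraction list, Srl, the gene of the sarcoplasmic reticulum protein sarcalumenin, had 8 intervals with 156 ± 16.8 CPM in CTL and 165 ± 18.2 in the H2A.Z dKO-labelled libraries. Bin1, a T-tubule gene, had 4 with 118 ± 3.19 and 133 ± 8.02 CPM, its groups not overlapping, and a smallest unadjusted p of 0.077 in edgeR's test (adjusted p = 0.972). Cacna1s, which encodes the voltage sensor, had 8 with 107 ± 15.2 and 108 ± 9.97. The highest level was in Camk2b, a calmodulin kinase gene (chr11:5896114-5896127), at 290 ± 74.5 and 265 ± 103 RPKM. At an unadjusted p under 0.05, 6 of 86 were higher and 4 lower, against 2.64% and 2.31% of all intervals, and 6 of these 10 are in the potassium channel gene Kcnq5, of which 5 were higher and 1 lower, with 2 of the higher ones overlapping each other. The calsequestrin gene Casq2 had 1 higher interval, the calcium release channel gene Itpr1 2 lower and the junctophilin gene Jph2 1 lower. The list had a median log2 fold change of 0.08 (0.16 without H2A.Z dKO replicate 1, and 0.03 without CTL replicate 2 or H2A.Z dKO replicate 3).

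Among muscle regulators, Srf, the serum response factor gene, had 4 intervals with 212 ± 25.5 CPM in CTL and 230 ± 19.2 in the H2A.Z dKO-labelled libraries. The nuclear factor I genes Nfic and Nfia had 9 with 178 ± 11.6 and 185 ± 8.80 CPM, and 11 with 184 ± 10.1 and 173 ± 27.9. The highest level was in Nfix (chr8:87233284-87233311), at 312 ± 21.6 and 287 ± 27.2 RPKM. Of 106 intervals, 2 were higher, in Ppargc1b and Nfix, and 2 lower, a pair of overlapping intervals in Mef2c, at an unadjusted p under 0.05, against 2.64% and 2.31% of all intervals. The median log2 fold change was 0.08, which became 0.12 without H2A.Z dKO replicate 1, 0.13 without CTL replicate 1 and -0.01 without H2A.Z dKO replicate 3.

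Metabolic genes were led by Tbc1d1, a regulator of glucose transporter traffic, whose 12 intervals had 249 ± 10.9 CPM in CTL and 265 ± 22.7 in the H2A.Z dKO-labelled libraries. Pfkm, the muscle phosphofructokinase gene, had 4 with 73.2 ± 9.30 and 89.3 ± 8.09, and Pgm2, which encodes a phosphoglucomutase, 2 with 59.6 ± 6.07 and 69.2 ± 13.8. The highest level was in the pyruvate kinase gene Pkm2 (chr9:59507702-59507728), at 247 ± 33.7 and 234 ± 73.1 RPKM. In the sarcolemma list Lama2, the laminin α2 gene, had 88.2 ± 11.2 and 95.9 ± 14.2 CPM over 8 intervals, and the membrane repair gene Dysf 45.9 ± 4.10 and 40.4 ± 6.55 over 6. An interval of Lama2 had the highest level of that list (chr10:27107319-27107338), at 201 ± 67.5 and 188 ± 122 RPKM. The median log2 fold change was 0.08 for the metabolic list and -0.03 for the sarcolemma list. Without H2A.Z dKO replicate 1 they were 0.13 and 0.12, against 0.10 over all intronic intervals. The sarcolemma median was -0.12 without H2A.Z dKO replicate 2. The metabolic median was 0.02 without H2A.Z dKO replicate 2 or replicate 3. At an unadjusted p under 0.05, 1 of 51 metabolic intervals was higher, in Pfkm, and 0 were lower, against 2.64% and 2.31% of all intervals. In the sarcolemma list 2 of 55 were higher, in Ank2 and Lama2, and 2 lower, in Dysf and Large, against the same shares.

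Endothelial genes had the lowest median of the lists. Their 24 intronic intervals, in 11 genes, had a median log2 fold change of -0.38, against 0.02 over all intronic intervals, and 19 were below 0. Their summed level was 262, 287 and 264 CPM in CTL and 222, 247 and 232 in the H2A.Z dKO-labelled libraries, so the groups did not overlap. As a share of the counts in intronic intervals it was 0.262%, 0.295% and 0.266% against 0.251%, 0.231% and 0.220%, again without overlap. Without H2A.Z dKO replicate 1 the median was -0.28. The CPM of 7 did not overlap and was lower, against 5.3% of all intervals. At an unadjusted p under 0.05, 0 were higher and 6 lower, against 2.64% and 2.31% of all. These 6 are in Flt1, a VEGF receptor gene, and Mecom, with 2 each, in Vwf, the von Willebrand factor gene, and in the transcription factor gene Fli1, all with edgeR adjusted p of 0.972.

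The Vwf interval (chr6:125523312-125523539) held 151, 139 and 101 counts in the CTL libraries against 94, 84 and 125 in the H2A.Z dKO-labelled ones. The Flt1 interval of smallest p (chr5:148469518-148469621) held 56, 40 and 25 against 32, 18 and 23. Scaled to the depth of each library, the Flt1 interval did not overlap between the groups and the Vwf interval did. Summed over the gene, the 7 intervals of Flt1 had 57.4 ± 3.78 CPM in CTL and 47.7 ± 2.53 in the H2A.Z dKO-labelled libraries. Pecam1 had 59.5 ± 4.81 and 53.9 ± 4.53 over 3 intervals, and the angiopoietin receptor gene Tek 56.4 ± 11.02 and 52.2 ± 2.08 over 3. The highest level was at another Flt1 interval (chr5:148423010-148423166), which holds the telomeric repeat, at 156 ± 31.2 and 159 ± 18.3 RPKM.

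The summed levels of the other cell type lists overlapped between groups, and all their medians that lay below 0 lay above it without H2A.Z dKO replicate 1. The median over all intronic intervals rose as well without that library, from 0.02 to 0.10. Fibroblast genes had a median log2 fold change of -0.01 (0.04 without that library, 0.02 without CTL replicate 2, -0.05 without H2A.Z dKO replicate 2 and 0.01 under limma voom), with 0 higher and 1 lower at p under 0.05 before adjustment, against 2.64% and 2.31% of all intervals. They were led by Gsn (6 intervals, 86.2 ± 5.39 CPM in CTL and 83.4 ± 2.98 in the H2A.Z dKO-labelled libraries), Fbn1 (7 intervals, 69.4 ± 3.09 and 69.6 ± 7.18) and Dpt (4 intervals, 60.3 ± 11.7 and 67.4 ± 10.3). Their highest level was in the collagen gene Col5a1, at 269 ± 90.2 and 237 ± 69.8 RPKM. Leukocyte genes had a median of -0.10 (0.10 without that library, -0.33 without CTL replicate 1, 0.06 without CTL replicate 3 and -0.02 under limma voom). Of the 11, 3 were lower and 0 higher, against 2.31% and 2.64% of all intervals, 2 of the 3 being overlapping intervals of Dock2 that differ by 1 bp. They were led by Dock2 with 91.7 ± 35.8 and 72.9 ± 20.7 CPM, Sfpi1 with 36.6 ± 4.27 and 39.4 ± 6.32 and Csf1r with 5.24 ± 2.04 and 3.22 ± 0.167. Summed values of this list ran from 115 to 177 CPM in CTL and from 88.2 to 135.2 in the H2A.Z dKO-labelled libraries, with the top value in CTL replicate 3. Sfpi1 also held the leukocyte interval of highest level, at 110 ± 9.57 and 120 ± 31.8 RPKM.

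Smooth muscle genes had a median of -0.03 (from -0.14 without H2A.Z dKO replicate 2 and -0.11 without CTL replicate 1 to 0.02 without H2A.Z dKO replicate 1 and 0.04 without CTL replicate 3), with 1 of 10 lower and 0 higher, against 2.31% and 2.64% of all intervals, and were led by Mylk (82.4 ± 2.33 and 78.9 ± 20.5 CPM), Myh11 (27.5 ± 1.49 and 24.7 ± 5.85) and Abcc9 (20.2 ± 3.12 and 24.2 ± 4.801). Mylk also held their highest interval, at 132 ± 13.7 and 135.02 ± 38.0 RPKM. The 4 satellite cell intervals had a median of -0.05 (from -0.19 without H2A.Z dKO replicate 3 and -0.14 without CTL replicate 3 to 0.03 without H2A.Z dKO replicate 1) and the 5 Schwann cell intervals 0.03 (0.24 without H2A.Z dKO replicate 1 and -0.11 without H2A.Z dKO replicate 2), with 0 of either at an unadjusted p under 0.05. The satellite list was led by Sdc4 (21.7 ± 0.350 and 17.95 ± 4.49 CPM), Notch1 (8.00 ± 1.26 and 6.14 ± 1.70) and Heyl (6.95 ± 2.74 and 8.03 ± 0.811), the highest interval being that of Notch1 at 136 ± 21.4 and 104 ± 28.8 RPKM. The Schwann list was led by Pmp22 (28.6 ± 2.34 and 24.2 ± 1.93 CPM), Erbb3 (16.6 ± 3.51 and 16.98 ± 4.74) and Prx (6.91 ± 2.504 and 8.35 ± 1.63), the highest interval being in Pmp22 at 235 ± 59.0 and 173 ± 3.47 RPKM.

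**Figure D5:**
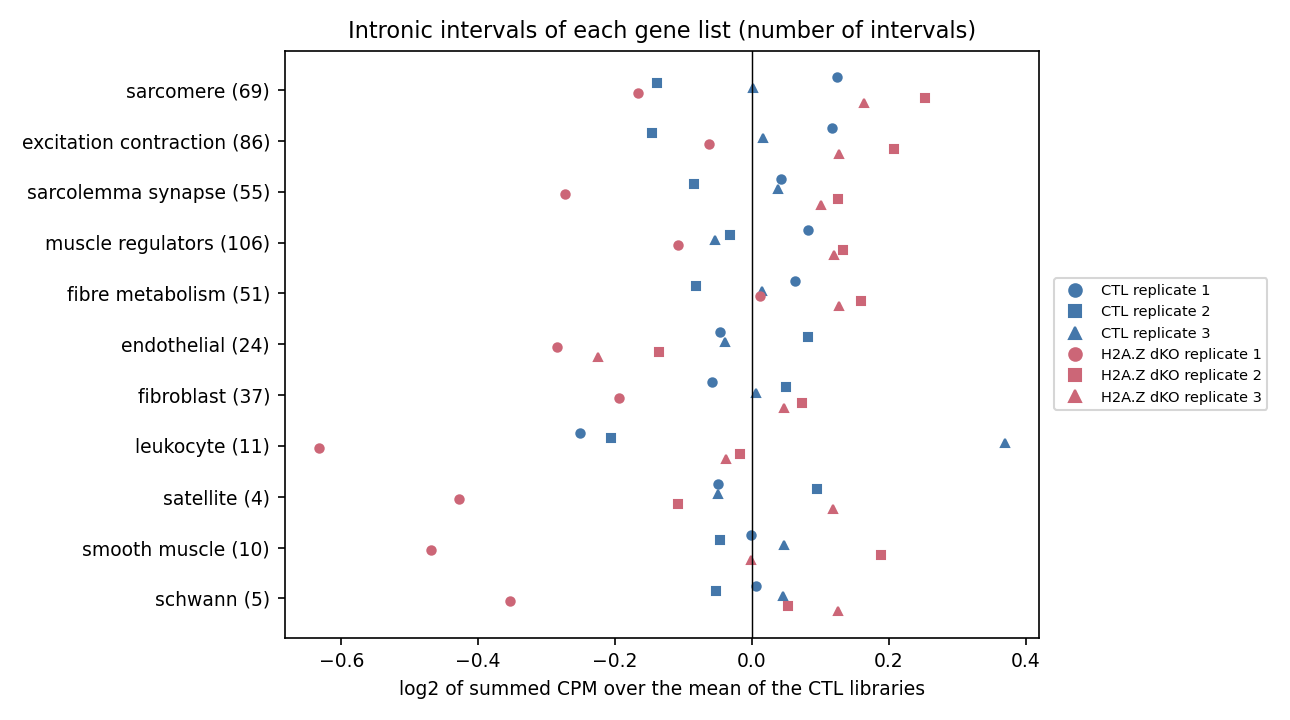
Summed CPM of the intronic intervals of each gene list in each library, as log2 of its ratio to the mean of the CTL libraries (x axis); the number of intervals stands beside each list. Endothelial genes are the list in which all 3 H2A.Z dKO libraries lie below all 3 CTL libraries, with 222 to 247 CPM against 262 to 287, and H2A.Z dKO replicate 1 is the lowest library in every list but excitation-contraction coupling and fibre metabolism.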

How the data were processed

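ATAC-seq counts of 6 libraries (3 CTL, 3 labelled H2A.Z dKO) were analysed. Per the labels and the methods, the authors trimmed reads with Trimmomatic, aligned them to mm9 with Bowtie2, removed duplicates with Picard, called peaks with MACS2 on extended Tn5 cut sites and counted them per interval. The deposited table holds these raw counts, with no normalization. Its header mixes tabs and spaces and has 1 name fewer than there are columns; read in order, its names put the 6 libraries on the 6 whole-number columns after the intervals' positions, and the unnamed column was taken to come after these and was not used. Its columns of the authors' own comparison (log2 fold change, standard error, Wald score, p-value and adjusted p-value) were not used, and 0 columns of per-sample values were left unused. Settings for reads that align at many places are not given in the sources used here.

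All 39768 intervals were fitted with edgeR 4.0.16 in R 4.3.3 (TMM, robust quasi-likelihood test) with Benjamini-Hochberg adjustment over all of them, and only intronic intervals are described. DESeq2 1.42.0 and limma 3.58.1 (voom), other scalings, a count filter, a replicate block and leaving out each library were alternatives. The tests were tried on simulated data with known changes. Classes of intervals were compared within each library by an exact sign-flip permutation test. Motifs and annotation were computed in Python 3.11.15 with pandas 2.3.3. Sequence was read from the mm9 genome. Libraries held 3520008 to 6117245 counts, and narrow intervals with few counts have the widest confidence intervals.

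The intervals and gene lists were chosen with earlier results of these data known. Named were the 5 intronic intervals highest in RPKM, the 5 of smallest p on either side, the 5 widest, the 5 genes holding the most, the 3 genes with the most counts and the highest interval of each gene list, intervals of H2afz and H2afv, and the highest interval with each of 4 motifs. Intervals at an unadjusted p under 0.05 in the gene lists are named besides, chosen after their values were seen. Some items this rule names are not reported here.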

Additional observations from a re-analysis of the deposited data

How the results depend on the processing

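No intronic interval passed an adjusted p of 0.05 in any of the 20 alternatives, which included DESeq2, limma voom, other scalings, a count filter, an adjusted p of 0.1 and other definitions of the intervals. The smallest adjusted p ran from 0.392 without H2A.Z dKO replicate 1 to 0.9998 under DESeq2. With the replicate block it was 0.688, with 229 intervals higher and 247 lower before adjustment (p under 0.05) and 0 adjusted calls. Over all intervals that block gave 1756 at p under 0.05 in either direction. Libraries with the same number had correlations of -0.0977, -0.053 and -0.0323, so the numbers do not pair them. At an unadjusted p under 0.05, DESeq2 gave 97 higher and 94 lower, with 756 in either direction over all intervals. Leaving out 1 library gave 165 (without H2A.Z dKO replicate 2) to 592 (without H2A.Z dKO replicate 1) higher. It gave 142 (without CTL replicate 3) to 292 (without CTL replicate 1 or H2A.Z dKO replicate 2) lower. Without H2A.Z dKO replicate 2, H2A.Z dKO replicate 1, CTL replicate 3 and CTL replicate 1, the intronic calls in either direction were 457, 791, 359 and 598, against 504. Over all intervals they were 2139, 3163, 1265 and 1955, against 1970, and the causes were not tested. The median log2 fold change ran from -0.03 to 0.10 when 1 library was left out. The difference in level from promoter intervals ran from -0.47 to -0.39 and that from exonic intervals from -0.0998 to -0.0813 when 1 library was left out, where the exact test of 5 libraries cannot reach 0.05. The difference from intergenic intervals passed with intronic intervals alone limited to 2 kb (-0.039) and 5 kb (-0.068) from a TSS, which removes the ranges of distance with the highest median RPKM. With both classes limited it was -0.022 and -0.027 and did not pass, and that from exonic intervals was -0.054 and, at 5 kb, -0.017, where it no longer passed. The alternatives without very long gene models and without telomeric repeats, those with both classes limited by distance, and those for motifs, were added after seeing the data.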
